A study of Mus musculus with 6 samples.

Results

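Ribosome biogenesis factors are the nuclear and nucleolar proteins that make ribosomal RNA, modify and cleave it, and fold it with ribosomal proteins into the subunits. A list of 40 such genes was followed on arrays of myeloma-associated macrophages. Each gene was read from 1 probe set, the brightest on average of those annotated to its symbol alone, which gave values for 38 of the 40 among 22180 genes. Fbl, for the methyltransferase fibrillarin, and Tsr1, for a factor of late small subunit assembly, had only probe sets shared with another gene and are given no value. The list was drawn up with the log2 values of this comparison in view, so the values of its members are a description.

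Macrophages were grown from bone marrow of 3 C57BL/KaLwRij mice with M-CSF for 7 days, kept overnight with 5TGM1-luc myeloma cells, and then given the CSF1R antibody (labelled CS7, 0.5 nM) or control IgG for 3 days. All cultures of both groups thus had M-CSF and myeloma cells, which were washed off 4 times before RNA was taken from what remained. There were 3 arrays from CSF1R antibody cultures and 3 from IgG cultures. The labels give no age of the mice, no separate dose for the IgG and no tie of an array to a mouse. A p-value therefore reflects how far these arrays scatter, and that scatter may be technical. Over all genes, arrays correlated at 0.992 to 0.993 within a group and at 0.984 to 0.985 between groups.

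Ribosome production starts in the nucleolus, where RNA polymerase I transcribes a long precursor of the ribosomal RNAs. Small nucleolar RNAs guide its methylation and pseudouridylation in ribonucleoprotein particles of the box C/D and box H/ACA kinds, while the small subunit processome and the large subunit precursors fold and cleave it. The transcription factor MYC is known to raise many genes of this pathway, and CSF1R signalling is known to induce Myc in macrophages. Dividing cells and antibody-secreting cells make many ribosomes.

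MYC binds with its partner MAX to the E-box, whose letters are CACGTG and read the same on both strands. RefSeq promoter windows of GRCm38.p6, from 250 bases before the gene start to 50 bases from it on, were matched to 34 of the 40 genes (not to Fbl, Rrs1, Nol6, Bop1, Rrp12 and Npm1), some with more than 1 window, for 37 windows in all. The E-box letters stood in 10 of the 37 windows (27.0%), 1 per window, against 18.9% of 159 windows of other genes of the pathway, 7.84% of 21262 windows of protein-coding genes and 7.15% of all 32851 windows. In 8 of these 10 windows the E-box began at or after the start point, which was so in 21.6% of the members' windows, 6.29% of those of other pathway genes and 1.11% of those of protein-coding genes. The last 120 bases of the 10 windows are shown to place that E-box, in capitals, beside the start point at base 71, in order of the gene's log2 difference between groups from the most negative, with the unmeasured Tsr1 last.
Utp20 (chr10:88826765-88826884, minus strand): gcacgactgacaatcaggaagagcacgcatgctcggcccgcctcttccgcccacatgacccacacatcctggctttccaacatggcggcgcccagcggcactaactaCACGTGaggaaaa
Mybbp1a (chr11:72441257-72441376, plus strand): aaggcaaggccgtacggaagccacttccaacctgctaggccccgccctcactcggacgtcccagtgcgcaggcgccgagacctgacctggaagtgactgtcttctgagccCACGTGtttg
Ltv1 (chr10:13193088-13193207, minus strand): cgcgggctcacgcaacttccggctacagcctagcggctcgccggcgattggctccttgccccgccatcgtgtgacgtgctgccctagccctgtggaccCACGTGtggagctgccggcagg
Nop2 (chr6:125131813-125131932, plus strand): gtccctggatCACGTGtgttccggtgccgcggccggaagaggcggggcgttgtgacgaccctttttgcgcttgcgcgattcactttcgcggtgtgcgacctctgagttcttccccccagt
Wdr43 (chr17:71616145-71616264, plus strand): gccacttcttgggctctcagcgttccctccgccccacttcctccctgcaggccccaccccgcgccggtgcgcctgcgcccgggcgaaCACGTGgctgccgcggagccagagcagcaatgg
Pno1 (chr11:17211540-17211659, minus strand): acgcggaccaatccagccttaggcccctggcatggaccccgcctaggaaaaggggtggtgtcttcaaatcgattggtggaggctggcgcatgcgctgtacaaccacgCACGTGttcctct
Utp18 (chr11:93885717-93885836, minus strand): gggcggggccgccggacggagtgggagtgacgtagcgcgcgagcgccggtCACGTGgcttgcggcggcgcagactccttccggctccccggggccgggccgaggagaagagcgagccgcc
Utp4 (chr8:106893570-106893689, plus strand): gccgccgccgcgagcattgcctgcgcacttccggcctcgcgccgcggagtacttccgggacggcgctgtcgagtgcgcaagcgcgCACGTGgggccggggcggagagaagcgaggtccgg
Pes1 (chr11:3963905-3964024, plus strand): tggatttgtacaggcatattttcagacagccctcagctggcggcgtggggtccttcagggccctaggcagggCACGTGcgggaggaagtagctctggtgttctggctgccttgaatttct
Tsr1 (chr11:74898010-74898129, plus strand): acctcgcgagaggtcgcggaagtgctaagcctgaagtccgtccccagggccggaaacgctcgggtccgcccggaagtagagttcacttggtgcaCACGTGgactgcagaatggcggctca

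The E-box began at base 108 of the stretch in Utp20 and Pno1, at base 88 in Wdr43, at base 86 in Utp4 and at base 73 in Pes1. It lay before the start point in Nop2, at base 11, and in Utp18, at base 51. The 9 measured genes with the letters had differences between −0.63 and −0.15, with a median of −0.38. The 24 measured genes with a window but without the letters had differences between −0.62 and −0.08, with a median of −0.50. The variant CACGCG, searched on both strands, was in 24.3% of the members' windows and 12.1% of protein-coding windows, and the ETS-type letters CCGGAAG, on both strands, were in 29.7% of the members' windows and 11.6% of protein-coding windows. Measured genes with the variant had a median difference of −0.46, and those with a window but without it −0.49. For the ETS-type letters these medians were −0.39 and −0.49. Overlaps between motifs were allowed. The TATA box letters TATAAA, on both strands, were in 2 windows of members, those of Dkc1 and Pes1, or 5.41%, against 12.6% of protein-coding windows. These matches describe letters in a window and say nothing of binding.

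All 38 measured members were lower on average with the CSF1R antibody than with IgG. The log2 differences, antibody minus IgG, lay between −0.63 and −0.08, with a median of −0.43, on arrays where the median over all 22180 genes was −0.02. With limma's test over all genes at an adjusted p of 0.05, 37 of the 38 were called lower and 0 higher, where 16.0% of all genes were called lower and 12.5% higher. The list was chosen on this comparison, so nothing is read from that count. In 37 members the 3 antibody arrays lay wholly below the 3 IgG arrays, as they did for 22.7% of all genes, while 16.6% of all genes lay wholly above. None of the members differed by 1 or more on the log2 scale. With cyclic loess scaling the median was −0.32, 32 members were called lower, and Nop9 changed sign to 0.03 without a call. Fewer cells of a type and less RNA per cell cannot be told apart in these cultures. Plasma cell markers were read on the arrays of both groups as well, so the cells that gave the members' RNA are not known.

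**Figure D1:**
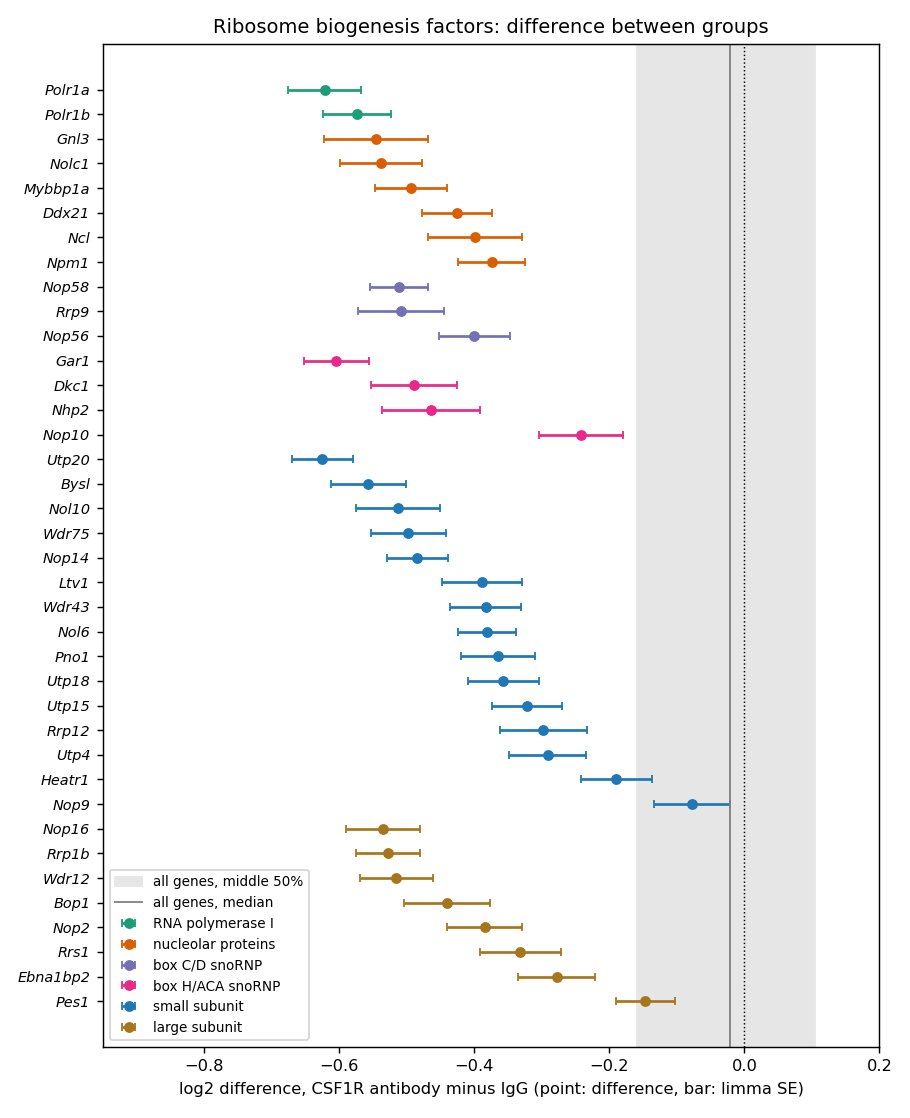
Log2 difference (CSF1R antibody minus IgG) of each of the 38 measured ribosome biogenesis factors on the x axis, grouped and coloured by role, with limma standard errors as bars and the median and middle 50% of all 22180 genes in grey. All points lie left of 0, from Utp20 at −0.63 to Nop9 at −0.08.

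Markers of macrophages and of other cell types were read on the same arrays, and the part of these cells in the result was not tested. Of 12 plasma cell markers, 11 lay above a background guide of 4.92, the 95th percentile of 1390 odorant and pheromone receptor genes, and Tnfrsf17 lay below it. Of the 12, 9 were called lower and 0 higher, with a median difference of −0.37. Their summed intensity was 10946.1 to 11116.6 with the antibody and 14391.1 to 15120.9 with IgG. The 12 macrophage markers were all above the guide and all called higher, with a median of 1.23 and summed intensities of 35989.4 to 38200.8 with the antibody and 20161.4 to 20605.8 with IgG. All 14 measured proliferation genes were called lower (median −0.54, summed intensity 11225.8 to 12049.4 with the antibody and 15918.0 to 16100.5 with IgG). Of 10 stromal markers, 5 were called lower and 1, Dcn, higher (median −0.35, sums 1018.7 to 1080.4 and 1930.7 to 1985.0). Lum, Fap and Dcn lay below the guide. Of 5 measured T cell genes, Cd3d, Cd3e, Cd3g and Cd8a lay below the guide in both groups, and Cd4, which macrophages can also express, was called higher by 2.00 (sums 360.1 to 375.2 and 131.1 to 152.7). Of 8 neutrophil genes, 7 lay below the guide, all but Mpo, and limma called 0 of the 8 (sums 133.4 to 135.6 and 135.2 to 136.5). The 38 members were all above the guide. Of the 13110 genes above it in at least 1 group, 26.0% were called lower and 20.1% higher. In 4604 of those genes the antibody arrays lay wholly below the IgG arrays.

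Both measured genes for core subunits of RNA polymerase I were lower. Polr1a, the largest and catalytic subunit, had log2 values of 8.38, 8.38 and 8.27 with the antibody and of 9.02, 8.93 and 8.94 with IgG. The groups were well apart, with a difference of −0.62 (SE 0.05), which is 65.0% of the IgG level. Polr1b, the other large subunit of the enzyme's core, had 7.78, 7.78 and 7.86 with the antibody and 8.40, 8.34 and 8.41 with IgG. No antibody array reached the lowest IgG array, and the difference was −0.57 (SE 0.05).

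The 6 genes for proteins that organise the nucleolus or act as chaperones and helicases there were all called lower. Their median difference was −0.46. Gnl3, the nucleolar GTPase nucleostemin, had the lowest difference of the 6, at −0.55 (SE 0.08), from 9.80, 9.90 and 10.07 with the antibody and 10.47, 10.51 and 10.42 with IgG. Its antibody arrays were spread over a wider range than its IgG arrays, with SDs of 0.14 and 0.04. Ncl, for the histone and RNA chaperone nucleolin, had 10.99, 10.99 and 11.15 with the antibody and 11.39, 11.54 and 11.41 with IgG, a difference of −0.40 (SE 0.07). Npm1, for nucleophosmin, which forms the outer layer of the nucleolus, stood at 10.98, 11.01 and 11.07 with the antibody and at 11.36, 11.44 and 11.39 with IgG. It had the smallest difference of the 6, −0.37 (SE 0.05), and its groups did not overlap either. Nolc1, which carries small nucleolar particles, was at −0.54 (SE 0.06), Mybbp1a, a nucleolar MYB-binding protein, at −0.49 (SE 0.05), and the RNA helicase gene Ddx21 at −0.43 (SE 0.05).

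The box C/D particle methylates ribosomal RNA, and its 3 measured protein genes were called lower. Nop58 had log2 values of 10.68, 10.71 and 10.67 with the antibody and 11.23, 11.19 and 11.18 with IgG. This gene for a scaffold of the particle was alike within each group, with SDs of 0.02 and 0.03, and differed by −0.51 (SE 0.04). Nop56, its partner in the scaffold, had 11.24, 11.24 and 11.21 with the antibody and 11.71, 11.60 and 11.59 with IgG, a difference of −0.40 (SE 0.05). Rrp9, a protein of the U3 particle that guides early cleavage, differed by −0.51 (SE 0.06).

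The box H/ACA particle makes pseudouridine in ribosomal RNA and is also part of telomerase. Its 4 protein genes were all called lower. Gar1 had 8.17, 8.21 and 8.22 with the antibody and 8.75, 8.84 and 8.82 with IgG, and with −0.60 (SE 0.05) it was the lowest of the 4. Dkc1, the pseudouridine synthase dyskerin, had 9.13, 9.14 and 9.25 with the antibody and 9.62, 9.76 and 9.61 with IgG, a difference of −0.49 (SE 0.06). Nhp2, another core protein, differed by −0.46 (SE 0.07). Its antibody replicate 3, at 8.80, lay below the other antibody arrays, at 9.04 and 9.02. Nop10, the smallest core protein, had 11.16, 11.16 and 11.32 with the antibody and 11.43, 11.50 and 11.43 with IgG. Its difference of −0.24 (SE 0.06) was the smallest of the particle, and its call was lost in 10 of 18 alternative settings, among them cyclic loess (−0.13) and the omission of any array but antibody replicate 3.

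**Figure D2:**
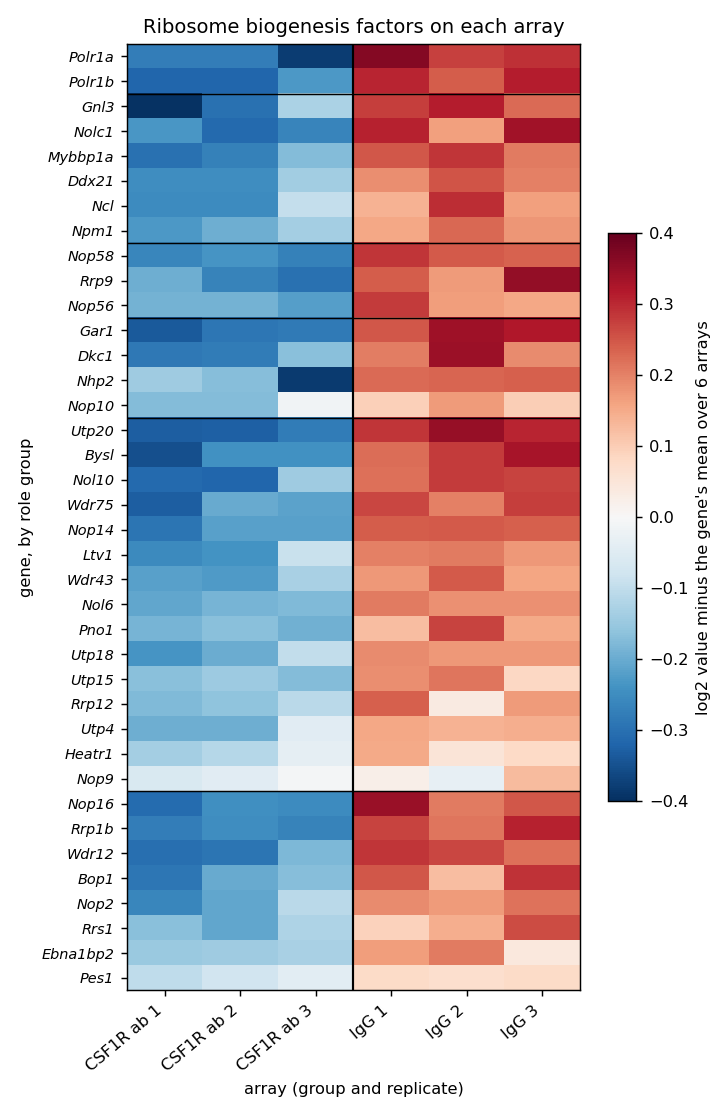
Log2 value of each of the 38 factors (rows, by role group) on each array (columns, the 3 CSF1R antibody arrays left of the 3 IgG arrays), shown as the deviation from the gene's mean over the 6 arrays. Antibody arrays are below the gene's mean in all 38 rows, and IgG arrays are above it in all rows but Nop9 on IgG replicate 2. The median deviation over all rows is smallest on antibody replicate 3 (−0.17), but not in every role group. For box C/D genes it is −0.27 there, against −0.20 and −0.24 on antibody replicates 1 and 2.

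The small subunit group was the largest, with 15 of 16 genes measured, 14 of them called lower, and a median difference of −0.38. Utp20, a large repeat protein of the processome, had 8.23, 8.23 and 8.28 with the antibody and 8.84, 8.90 and 8.86 with IgG. At −0.63 (SE 0.05), or 64.8% of the IgG level, it had the lowest difference of all the members. Heatr1, which belongs with Utp4, Utp15, Wdr43 and Wdr75 to the subcomplex that joins the precursor first, stood at 9.16, 9.18 and 9.26 with the antibody and 9.44, 9.34 and 9.37 with IgG. The gap between its groups was narrow, its difference was −0.19 (SE 0.05), and the call was lost in 10 of 18 alternative settings, among them cyclic loess (−0.07) and the omission of any array but antibody replicate 3. Within the same subcomplex Wdr75 differed by −0.50 (SE 0.06), Wdr43 by −0.38 (SE 0.05), Utp15 by −0.32 (SE 0.05) and Utp4 by −0.29 (SE 0.06). Nop9, an RNA-binding protein known from yeast to guard the precursor, was the one member not called. It had 7.96, 7.98 and 8.01 with the antibody and 8.04, 7.99 and 8.15 with IgG, so its groups overlapped, and its difference was −0.08 (SE 0.06).

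Of the other processome genes, Nol10 differed by −0.51 (SE 0.06), Nop14 by −0.48 (SE 0.05), Nol6 by −0.38 (SE 0.04) and Utp18 by −0.36 (SE 0.05). Nop14 showed almost no spread on the IgG arrays, with an SD of 0.003. Factors of the later steps of small subunit assembly lay in the same range. Bysl, for bystin, differed by −0.56 (SE 0.06), the assembly factor gene Ltv1 by −0.39 (SE 0.06), Pno1, for an RNA-binding protein of the precursor, by −0.36 (SE 0.05) and Rrp12, known from yeast for subunit export, by −0.30 (SE 0.06). The call of Rrp12 was lost in 4 of the 18 settings: cyclic loess (−0.19), the stricter threshold, and without antibody replicate 1 (−0.28) or IgG replicate 3 (−0.29).

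The 8 genes of large subunit assembly were all called lower, with a median difference of −0.41. Nop16 had 8.85, 8.91 and 8.90 with the antibody and 9.50, 9.36 and 9.40 with IgG, and with −0.54 (SE 0.05) it was the lowest of the 8. Pes1, Bop1 and Wdr12 form the PeBoW complex, which is needed to process the large subunit RNAs. Bop1 had 8.63, 8.71 and 8.74 with the antibody and 9.16, 9.04 and 9.21 with IgG, a difference of −0.44 (SE 0.06), and Wdr12 differed by −0.52 (SE 0.05). Pes1 had 9.81, 9.83 and 9.87 with the antibody and 9.98, 9.98 and 9.98 with IgG. Its groups did not overlap, but the difference was −0.15 (SE 0.04), or 90.3% of the IgG level, and the call was lost in 11 of 18 settings, with −0.03 under cyclic loess and −0.15 to −0.13 without any array but antibody replicate 3. Whether Pes1 differed from its partners in response was not tested. Rrp1b was at −0.53 (SE 0.05), the RNA methyltransferase gene Nop2 at −0.38 (SE 0.06), Rrs1, known from yeast for bringing in the smallest ribosomal RNA, at −0.33 (SE 0.06), and Ebna1bp2 at −0.28 (SE 0.06; call lost in 2 of 18 settings, among them cyclic loess with −0.17).

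A few features of the measurement touch these values. In 9 of the 38 members at least 2 of the 3 antibody arrays had exactly equal values, in 7 of them replicates 1 and 2, against 0 members on the IgG arrays. Over all genes such ties were found for 17.8% with the antibody and 10.9% with IgG, and they make the spread within a group look smaller. For 4 members more than 1 probe set carried the symbol, and the 5 probe sets not used were lower with the antibody too. Nop56 was at −0.56 (SE 0.14) and −0.45 (SE 0.12) on its others, Npm1 at −0.71 (SE 0.07), Ddx21 at −0.49 (SE 0.07) and Rrs1 at −0.23 (SE 0.07). Over the members, the median deviation from the gene's mean was −0.25, −0.22 and −0.17 with the antibody and 0.22, 0.21 and 0.21 with IgG. Antibody replicate 3 lay nearest to the IgG arrays by this median.

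Introns of several members hold small nucleolar RNAs. In RefSeq, 19 such genes lie within 7 of the 40 listed genes, by position and without regard to strand, and 10 of them, within 6 hosts, were measured. All 10 were lower on average with the antibody, with a median difference of −0.33, and 6 were called lower and 0 higher, against a median of −0.18 with 29 lower and 1 higher among all 78 measured small nucleolar and Cajal body RNAs. Snord19, within Gnl3, had 5.29, 5.37 and 5.36 with the antibody and 5.97, 6.33 and 6.31 with IgG. Its groups were far apart, with a difference of −0.87 (SE 0.10; limma adjusted p = 0.001). Snord69, in the same host, differed by −0.05 (SE 0.09) and was not called. Snord53, within Wdr43, differed by −0.42 (SE 0.05; limma adjusted p = 0.0014) and Snord92, its neighbour, by −0.34 (SE 0.28, not called). Within Nop58, Snord70 was called at −0.32 (SE 0.09) and Snord11 was not (−0.04, SE 0.08), and Snord110, within Nop56, was not called either (−0.10, SE 0.06). Snora75 (−0.51, SE 0.15) and Snord82 (−0.23, SE 0.05), both within Ncl, were called, although the groups of Snora75 overlapped. The calls of Snora75, Snord70 and Snord82 were lost with cyclic loess (limma adjusted p of 0.086, 0.10 and 0.27), with arrays centred on their medians (0.060, 0.060 and 0.054) and when certain single arrays were left out. For Snora75 these arrays were antibody replicates 1 and 2 (adjusted p = 0.14 for each) and IgG replicates 1 and 2 (0.15 and 0.16). For Snord70 they were the same antibody arrays (0.10 for each) and all IgG replicates (0.062 for 1, 0.098 for 2 and 0.069 for 3). For Snord82 they were antibody replicate 1 (0.056) and IgG replicate 2 (0.060). Robust variances also ended the call of Snora75 (adjusted p = 0.051). Snord91a, called at −0.58 (SE 0.08) within the unmeasured Tsr1, stayed under the guide in the antibody and IgG groups.

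Other genes of the pathway were taken from lists of 171 genes, of which 157 were measured. Of these, 106 fell and 7 rose by limma's test, against 16.0% and 12.5% of all genes (26.0% and 20.1% of the 13110 genes above the guide), with a median difference of −0.34. Large subunit factors fell in 39 of 46 cases, with 0 rising (median −0.39). Mdn1, for the ATPase midasin that releases factors from the large subunit precursor, stood at 7.11 on all 3 antibody arrays and at 7.83, 7.81 and 7.85 with IgG. Its values were tied exactly in the antibody group, and it fell by 0.72 (SE 0.04; adjusted p = 5.1e-05). Ppan fell by 0.67 (SE 0.06; adjusted p = 0.00045) and Urb1 by 0.58 (SE 0.05; adjusted p = 0.00022). Small subunit factors fell in 35 of 44 cases and rose in 1 (median −0.36). Rcl1 fell by 0.58 (SE 0.05), the kinase gene Riok2 by 0.57 (SE 0.06) and Esf1 by 0.56 (SE 0.05), with adjusted p between 0.00019 and 0.00077. Riok3, a kinase related to Riok2, rose by 0.21 (SE 0.05; adjusted p = 0.021). This call did not hold without any 1 array other than IgG replicate 3. The adjusted p was 0.061, 0.052 and 0.050 on omitting antibody replicates 1, 2 and 3, and 0.060 and 0.059 on omitting IgG replicates 1 and 2.

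Of the other RNA polymerase I genes, 7 of 11 fell and 0 rose (median −0.31). For this and the other lists of this paragraph, 26.0% of genes above the guide were called lower and 20.1% higher. Tcof1, for treacle, which supports transcription of ribosomal DNA, had 9.87, 9.87 and 9.91 with the antibody and 10.39, 10.33 and 10.44 with IgG, and fell by 0.50 (SE 0.05; adjusted p = 0.00047). Polr1e, another subunit of the enzyme, fell by 0.47 (SE 0.06; adjusted p = 0.0012) and Rrn3, the initiation factor that responds to growth signals, by 0.38 (SE 0.08; adjusted p = 0.011). Genes of particle assembly fell in 6 of 11 cases and rose in 1 (median −0.35). The ATPase gene Ruvbl1 fell by 0.53 (SE 0.05; adjusted p = 0.00054), Znhit6 by 0.45 (SE 0.05) and Znhit3 by 0.42 (SE 0.04), while Tgs1, for the methyltransferase of small nuclear and nucleolar RNA caps, rose by 0.33 (SE 0.07; adjusted p = 0.012). Genes for exosome subunits and other nucleases fell in 11 of 14 cases with 0 rising (median −0.38). They were led by Dis3 (fell by 0.49, SE 0.04), Exosc10 (fell by 0.47, SE 0.07) and Exosc1 (fell by 0.44, SE 0.06).

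RNA polymerase III makes the smallest ribosomal RNA and transfer RNAs. Among its 19 measured genes 6 fell (31.6%) and 1 rose (5.26%), and the median difference was −0.17. All 19 lay above the guide, where 26.0% of genes were called lower and 20.1% higher. With cyclic loess 5 of the 19 were called lower and 3 higher, against 10.6% and 15.4% of all genes. Their median was then −0.06. Polr3d fell by 0.44 (SE 0.06; adjusted p = 0.0025), Polr3g by 0.40 (SE 0.07; adjusted p = 0.0055) and Bdp1 by 0.37 (SE 0.07; adjusted p = 0.0076). Maf1, the repressor of this polymerase, had 8.46, 8.39 and 8.52 with the antibody and 8.16, 8.27 and 8.17 with IgG, and rose by 0.26 (SE 0.06; adjusted p = 0.015). Maf1 no longer passed on omitting antibody replicate 1 (adjusted p = 0.051), IgG replicate 1 (adjusted p = 0.053) or IgG replicate 3 (adjusted p = 0.054).

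**Figure D3:**
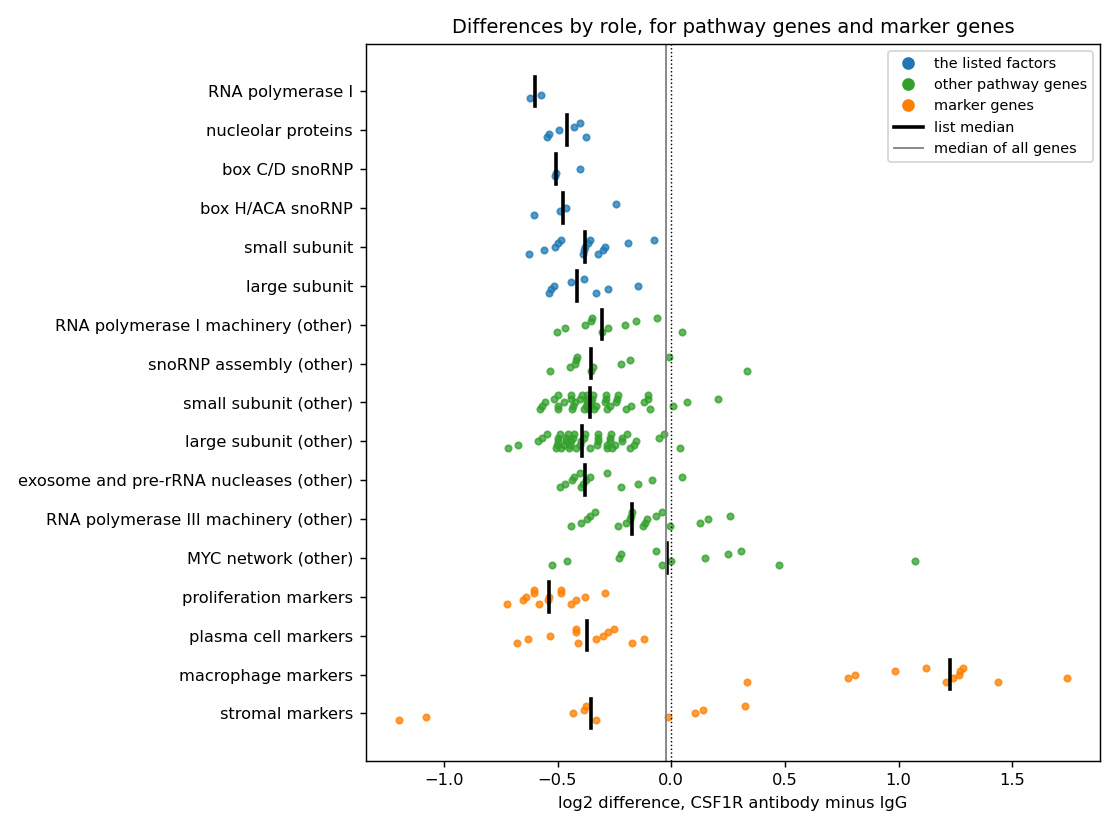
Log2 difference (CSF1R antibody minus IgG) of single genes, by list, with the list median as a black bar and the median of all genes as a grey line; listed factors are blue, other genes of the pathway green and marker genes orange. The medians of the 6 member groups lie between −0.60 and −0.38, beside −0.17 for RNA polymerase III genes, −0.37 for plasma cell markers, −0.54 for proliferation genes and 1.23 for macrophage markers.

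In the MYC network the genes did not move one way. Myc itself had 10.66, 10.71 and 10.56 with the antibody and 11.14, 11.23 and 11.12 with IgG, and fell by 0.52 (SE 0.06; adjusted p = 0.00086). Mga, for a MAX partner that opposes MYC, fell by 0.46 (SE 0.05; adjusted p = 0.0011). Mxd1, for a MAX partner that represses at E-boxes, had 10.99, 10.91 and 10.84 with the antibody and 9.86, 9.83 and 9.84 with IgG. It rose by 1.07 (SE 0.05; 2.10-fold; adjusted p = 2.8e-05), the one change of at least 1 among the 157. Max rose by 0.47 (SE 0.06; adjusted p = 0.0012). The other repressor partners called were Mxd4, which rose by 0.31 (SE 0.06; adjusted p = 0.0098), and Mnt, which rose by 0.25 (SE 0.05; adjusted p = 0.0085), both named after their values were seen. Mycn and Mycl were under the guide in the antibody and IgG groups. Of the 12 genes, 2 fell (16.7%), 4 rose (33.3%) and 6 were not called. Over all genes 16.0% were called lower and 12.5% higher. The median of the 12 was −0.02, as it was over all genes. With cyclic loess it was 0.09, with the same counts of calls.

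**Figure D4:**
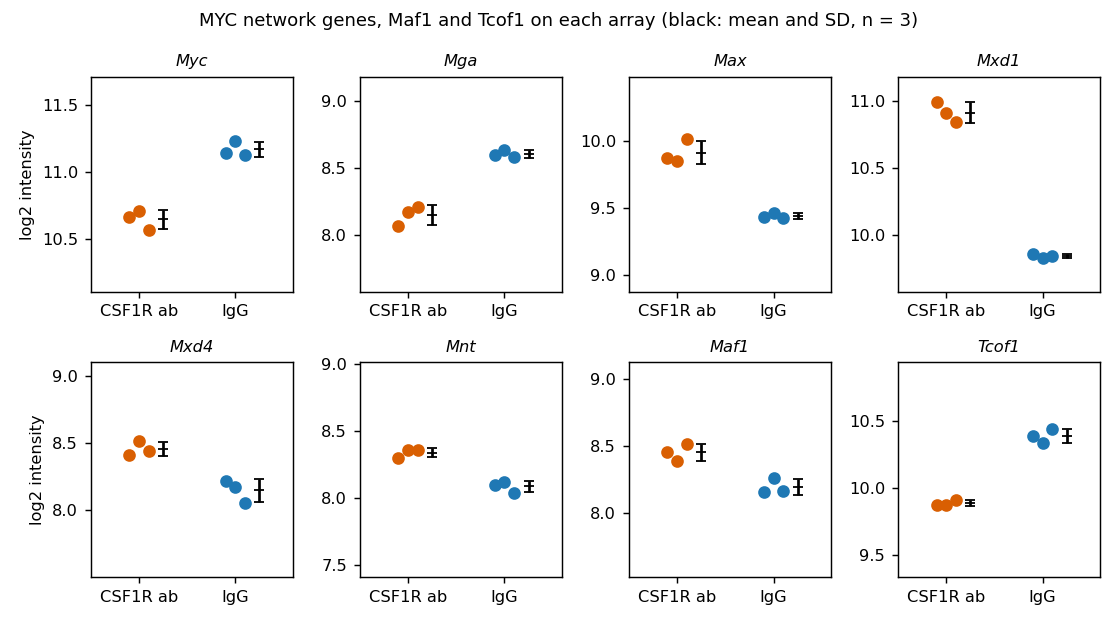
Log2 intensity of Myc, Mga, Max, Mxd1, Mxd4, Mnt, Maf1 and Tcof1 on each array, CSF1R antibody left and IgG right in each panel, with the mean and SD of 3 arrays in black; all y axes span the same range. In all 8 panels the groups do not overlap, with Myc, Mga and Tcof1 lower and the other 5 higher with the antibody.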

How the data were processed

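Each of the 6 samples was run on 1 Mouse Gene 2.0 ST array. The deposited values are linear probe set intensities. The submitters' processing notes name RMA and limma, with neither version nor role, and the genome build is not given in the sources used here. The near-equal array distributions mean that a shift shared by most genes would not be seen. No scanner files were used, and 3 arrays per group limit the precision.

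Intensities were turned into log2 values. By the platform annotation 23521 of 41345 probe sets had 1 symbol, 1814 several and 16010 none. The 22180 genes were tested in limma 3.58.1 (R 4.3.3), 3 antibody arrays against 3 IgG arrays, with Benjamini-Hochberg adjustment at 0.05; the SE is limma's moderated one. The fit was checked on simulated data with independent noise and known differences. Those data hold no tied values, so the check does not cover the ties of the real arrays.

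The members, lists and tests were chosen with earlier results of these data known. All members are accounted for. Every array's value is given for the lowest and highest member of each role group and for Polr1a, Ncl, Npm1, Fbl (not measured), Nop56, Dkc1, Heatr1, Bop1 and Pes1. From each other list, up to 3 genes called lower and 2 called higher are named, and Myc in any case; Mxd4 and Mnt were named besides, after their values were seen. Nested small nucleolar RNAs were found by RefSeq position, with no strand. Promoter windows are RefSeq's.

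Alternatives were array weights, robust variances, an intensity trend, median centring, cyclic loess, low-signal filters at percentiles 25 and 50, averaging a gene's probe sets, an adjusted p of 0.01, a minimum change of 0.25, replicate number as a block, and omission of single arrays. A filter at the background guide was chosen after seeing the data.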

Additional observations from a re-analysis of the deposited data

How the results depend on the processing

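The alternatives left 32 to 37 members called lower and 0 called higher in every setting run, and 32 of the 37 calls were kept in all 18 settings. The exceptions were Pes1, Heatr1, Nop10, Rrp12 and Ebna1bp2. With cyclic loess the median difference of the members moved to −0.32, against −0.43, and that of the other pathway genes to −0.22, against −0.34, and the median over all genes was 0.01 against −0.02. The cause was not tested. Over the 6 settings that leave out 1 array, 33 to 37 members were called lower with medians from −0.46 to −0.41, and 100 to 111 other pathway genes were called lower and 5 to 6 higher with medians from −0.35 to −0.32. At the adjusted p of 0.01, 32 members and 90 other pathway genes were called lower and 4 of those other genes higher, since the threshold is stricter. With the replicate number as a block, 34 members were called lower, and 98 other pathway genes were called lower and 5 higher. The calls not made with the block, among the genes named and the nested small nucleolar RNAs, were those of Pes1, Heatr1, Nop10, Riok3 (limma adjusted p = 0.059), Maf1 (0.057), Snora75 (0.11) and Snord70 (0.071). Deviations of same-numbered arrays had correlations of 0.03, −0.05 and 0.003, and those of the other pairs lay between −0.07 and 0.07. With 3 arrays per group these values cannot show whether same-numbered arrays share a mouse, which the labels do not say. The arrays were not paired in the main test. Over all genes, 2346 were called lower and 3411 higher with cyclic loess and 2766 lower and 3071 higher with arrays centred on their medians, against 3548 and 2766. The values hold no measure of signal over background, so depth of signal for single probe sets could not be judged beyond the receptor guide.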
